A study of Brassica juncea with 9 samples.

Results

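The comparison described here is between leaves of salt-grown Indian mustard (*Brassica juncea*, an oilseed and vegetable crop) with and without added bicarbonate, at the same dose of sodium chloride. Its members are 6 of the 9 samples of the series, chosen by their titles: 3 plants kept for 4 weeks in 50 mM NaCl with 2.5 mM bicarbonate, called alkaline salt here, and 3 plants kept for 4 weeks in 50 mM NaCl alone, called salt. All plants were of genotype NDR8501, were grown in hydroponic culture on a modified Hoagland solution and were 5 weeks old by their labels. The other 3 samples are unstressed control plants of the same genotype and age; they entered the estimate of the spread and are shown beside the 2 groups. Each array held RNA of the middle, fully expanded leaves of a single plant, so a value stands for 1 plant and the groups have n = 3 each. The study covers 1 genotype, 1 organ and 1 time point. The labelled tissue was not checked against leaf markers, because probes carry no gene names in the files.

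Bicarbonate is the ion that buffers saline water and soil at an alkaline pH. Plants take up iron, zinc, manganese and phosphate less readily from an alkaline solution, because these nutrients become poorly soluble and because roots acidify their surroundings to mobilise them; the yellowing of young leaves on calcareous soil is the best known sign of it. Sodium chloride acts on leaves through osmotic stress and through the sodium that accumulates in them. Setting alkaline salt against salt holds the sodium chloride dose constant and asks what the addition of bicarbonate changes. Bicarbonate, the positive ion supplied with it and any change of pH cannot be told apart in this design.

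Transcripts were measured on 1-colour oligonucleotide arrays, on which a probe is a short DNA sequence meant to capture 1 transcript. Its fluorescence intensity reflects the amount of RNA bound to it. Whether a probe also captured similar transcripts could not be checked, because the files give no probe sequence. Each array carried 43603 probes for 40632 transcript identifiers. Levels are given as scaled log2 intensity, the log2 intensity minus the 75th percentile of the same array, so that 0 is the array's 75th percentile and a difference of 1 is a doubling. A level serves to compare plants for 1 probe and not to compare probes. A probe was tested if the scanner software marked it well above background in all 3 plants of at least 1 group, as 17798 probes were, and it was called changed at a limma adjusted p under 0.05.

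The arrays differed in brightness within each group more than between the groups. The number of probes well above background was 16799, 22063 and 17899 in salt replicates 1 to 3, against 17209, 17500 and 21016 in alkaline salt replicates 1 to 3, and the groups overlapped (difference −345 probes, exact two-sided permutation p = 0.8, where the smallest p that 3 against 3 can give is 0.1). The highest count in each group came from the array with the lowest signal on negative control spots: 225 in salt replicate 2 and 535 in alkaline salt replicate 3, against 936 to 1901 on the other 4 arrays. Results that rest on these 2 arrays are therefore also given without them. Between repeated spots of the same probe on 1 array the median SD was 0.08 to 0.16 on the log2 scale. This rests on only 16 to 30 repeated probes per array that were above background. Between plants of a group the median SD was 0.26 in salt and 0.27 in alkaline salt over all tested probes, a different set.

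Bicarbonate at equal sodium chloride was accompanied by changes in 15.2% of the tested probes. In alkaline salt plants 1420 probes rose (7.98% of those tested) and 1288 fell (7.24%) relative to salt plants, by limma's moderated test with Benjamini-Hochberg adjustment. These 2708 probes represent 2551 transcript identifiers. Each array was scaled to its own 75th percentile, so changes are relative to that level; the median log2 fold change over all tested probes was 0.00 in this scaling and 0.07 where array medians were set equal. The order of rises and falls turned with the scaling. Rises were 52.4% of called probes in the main scaling and 63.8% after scaling to the array median (820 rises and 465 falls), but 49.7% after quantile normalisation (1484 and 1503) and 49.6% in the authors' deposited values (1477 and 1501). Only 38.5% to 50.6% of probes were well above background per array, so scaling to the median rests on probes near the detection limit. Replicate number and slide coincide, and blocking on them left 1195 rises and 1161 falls.

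The counts fell whenever a salt or alkaline salt plant was left out. Each omission leaves 2 plants in a group, which by itself lowers the power. That loss was not separated from the part of the single plant. With salt replicate 1 left out the rises numbered 919, and with salt replicate 3 left out 843. Omitting alkaline salt replicate 1 gave 918 rises, and omitting alkaline salt replicate 3 gave 719. Rises numbered 1114 without salt replicate 2 and also 1114 without alkaline salt replicate 2. The falls came to 655, 680 and 555 when salt replicate 1, 2 or 3 was omitted. They came to 900, 976 and 469 when alkaline salt replicate 1, 2 or 3 was. Without both arrays of low negative control signal, 465 probes rose and 172 fell. In each of these fits, 0 of the probes called in the full comparison and tested again had the opposite sign. Groups did not overlap for 1419 of the called rises and all 1288 called falls. Leaving out arrays could not turn the sign of these, so the 0 does not test the directions.

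**Figure D1:**
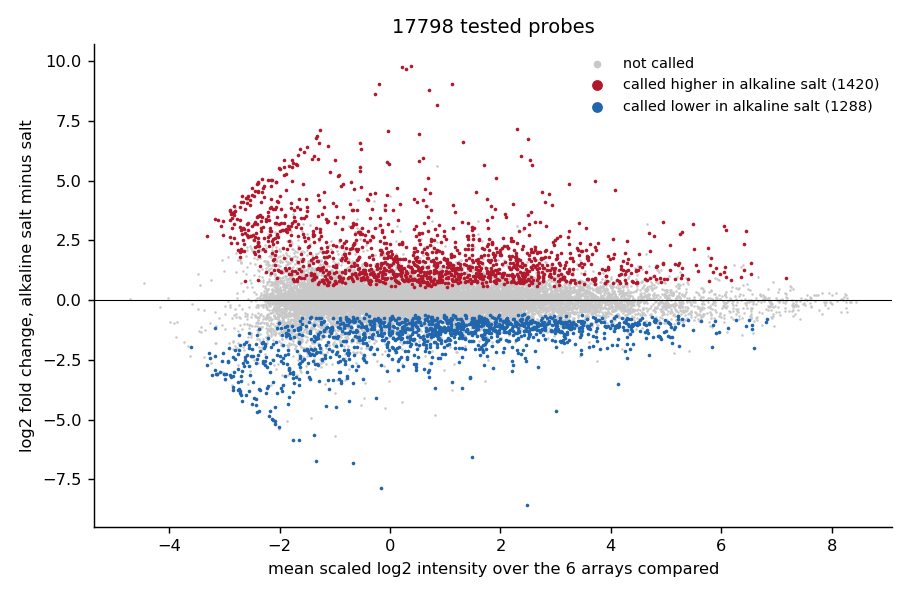
Each point is 1 of 17798 tested probes, placed by the mean scaled log2 intensity of the 6 arrays compared (horizontal axis) and its log2 fold change, alkaline salt minus salt (vertical axis). Red points are the 1420 probes called higher, blue points the 1288 called lower and grey points the probes not called; the points lie around 0 over the whole range of signal, and the highest rises are larger than the deepest falls.

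Rises reached larger sizes than falls. Among called probes well above background in at least 1 plant of both groups, the median rise was 2.72-fold (quartiles 2.03 and 4.50, 1280 probes) and the median fall 2.36-fold (quartiles 1.96 and 3.14, 1177 probes). Differences under 2-fold made up 303 of the called rises and 351 of the called falls. At the other end, a 4-fold difference was reached by 470 rises and 229 falls, an 8-fold one by 189 and 49, a 16-fold one by 74 and 10, and a 32-fold one by 29 and 4. Of the called probes, 140 rises and 111 falls had 1 group in which no plant was well above background. Their sizes enter these counts as bounds, for which the level in the group without detection was replaced, array by array, by the dimmest detected signal of that array wherever the probe itself was dimmer. The excess of large rises was also present among the 999 rises and 994 falls that were well above background in all 6 plants, where 179 rises and 81 falls were at least 4-fold and 14 rises and 1 fall at least 16-fold.

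The counts of large changes differed with the background correction, the dim probes tested and the plants included. Under normexp background correction of the spot medians, 171 rises and 39 falls reached 4-fold. An offset of 50 was added to each corrected intensity there, which by itself narrows the log2 differences of dim probes. Where only probes above background on all 6 arrays were tested, 180 rises and 83 falls reached 4-fold. The falls of at least 4-fold numbered 131 without salt replicate 3 and 95 without alkaline salt replicate 3.

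**Figure D2:**
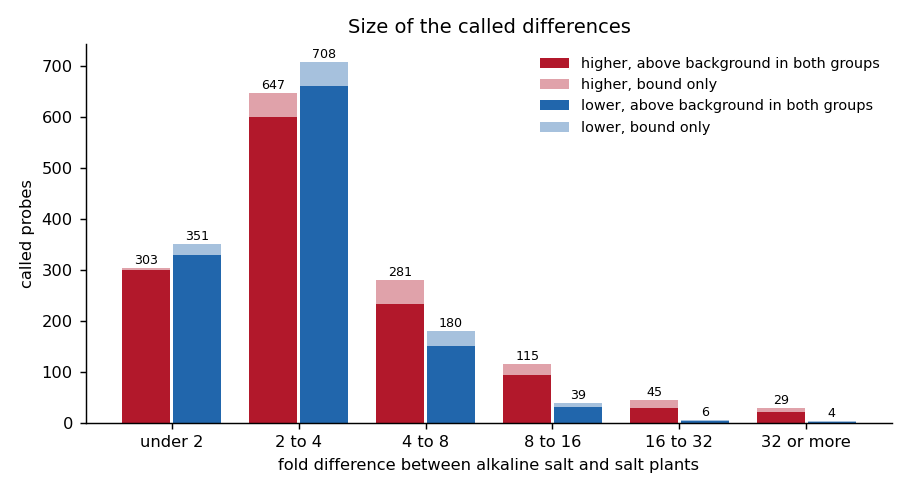
Bars count the called probes in classes of fold difference between alkaline salt and salt plants, red for higher and blue for lower in alkaline salt, with the pale part for probes known only as a bound. From 4-fold upward the red bars exceed the blue ones in every class (281 against 180 from 4- to 8-fold), while the blue bars are the higher ones below 4-fold (708 against 647 from 2- to 4-fold).

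Of the 15090 tested probes that were not called, many were measured closely enough to limit the change. For 8157 of them, or 54.1%, the 95% confidence interval of the fold change lay within 2-fold in either direction. For 1952, or 12.9%, the interval reached a 4-fold change, so a change of that size remained possible in the measurement. Over all 17798 tested probes, called ones included, the median half-width of the interval was 0.61 in log2 units. An unadjusted limma p under 0.05 was found for 5462 of all tested probes, a count that includes the called ones.

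The largest changes measured above background in all 6 plants are shown for 2 probes that rose and 2 that fell. The files give no gene name or sequence for them, so their roles are not stated.

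A_46_P183019 had the largest such rise. Its scaled log2 intensity was −0.12, −1.81 and −0.71 in salt replicates 1 to 3 and 6.09, 5.57 and 5.99 in alkaline salt replicates 1 to 3. The alkaline salt plants lay close together and far above every salt plant. The log2 fold change was 6.77 (SE 1.06, 95% interval 4.35 to 9.18, limma adjusted p = 0.00493), or 109-fold, and the differences on slides 1 to 3 were 6.22, 7.39 and 6.70. Control plants stood at −2.08, −5.07 and −0.08, of which replicates 1 and 2 were not well above background. The call was lost without both salt replicate 2 and alkaline salt replicate 3 (log2 fold change 6.25, limma adjusted p = 0.0735). Controls, with an SD of 2.52 against 0.86 in salt and 0.28 in alkaline salt, entered the estimate of the spread. With only the 6 arrays compared, the SE was 0.43 (limma adjusted p = 0.000796).

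A_46_P008521 followed. It stood at 0.25, −0.57 and −1.61 in salt replicates 1 to 3 and at 5.88, 4.96 and 5.34 in alkaline salt replicates 1 to 3, again with no overlap. The log2 fold change was 6.04 (SE 0.57, 95% interval 4.73 to 7.34, limma adjusted p = 0.000649), or 65.7-fold. Within slides 1 to 3 the difference was 5.63, 5.53 and 6.95. All 3 controls were well above background, at 0.07, 1.61 and 1.82, with 2 of them above every salt plant and all below every alkaline salt plant. The other tested probe of the same transcript identifier was also called, with a log2 fold change of 5.65.

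A_46_P343070 had the largest fall. Its level was 4.99, 5.11 and 5.84 in salt replicates 1 to 3 and 1.62, 0.10 and 0.34 in alkaline salt replicates 1 to 3. It fell by 4.63 on the log2 scale (SE 0.94, 95% interval −6.77 to −2.49, limma adjusted p = 0.0145), a 24.8-fold difference, and the 3 slides gave −3.37, −5.01 and −5.51. Although the groups were well apart, its call was lost in some fits that left out salt or alkaline salt arrays. The log2 fold change was −4.36 without salt replicate 3 (limma adjusted p = 0.0551) and −4.46 without alkaline salt replicate 3 (limma adjusted p = 0.0585). It was −4.56 without both arrays of low negative control signal (limma adjusted p = 0.122). The estimate of the spread included the controls, whose SD was 2.16, against 0.46 in salt and 0.82 in alkaline salt. With only the 6 arrays compared, the SE was 0.45 (limma adjusted p = 0.00235). The controls stood at 6.14, 5.63 and 2.16: controls 1 and 2 lay near the salt plants and control replicate 3 between the groups.

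A_46_P236944 fell from 3.18, 2.98 and 1.82 in salt replicates 1 to 3 to −0.82, −1.38 and −0.85 in alkaline salt replicates 1 to 3. The log2 fold change was −3.67 (SE 0.66, 95% interval −5.17 to −2.18, limma adjusted p = 0.00864), a 12.8-fold difference, with −4.00, −4.36 and −2.67 on slides 1 to 3. Without both arrays of low negative control signal the log2 fold change was −3.60 and the call was lost (limma adjusted p = 0.0915). Controls, with an SD of 1.42 against 0.74 in salt and 0.31 in alkaline salt, again entered the estimate of the spread. With only the 6 arrays compared, the SE was 0.39 (limma adjusted p = 0.00294). The alkaline salt plants formed the tighter group, and the controls, at 1.88, 3.76 and 0.99, all lay above them. The other tested probe of its transcript identifier was called too, with a log2 fold change of −3.67.

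**Figure D3:**
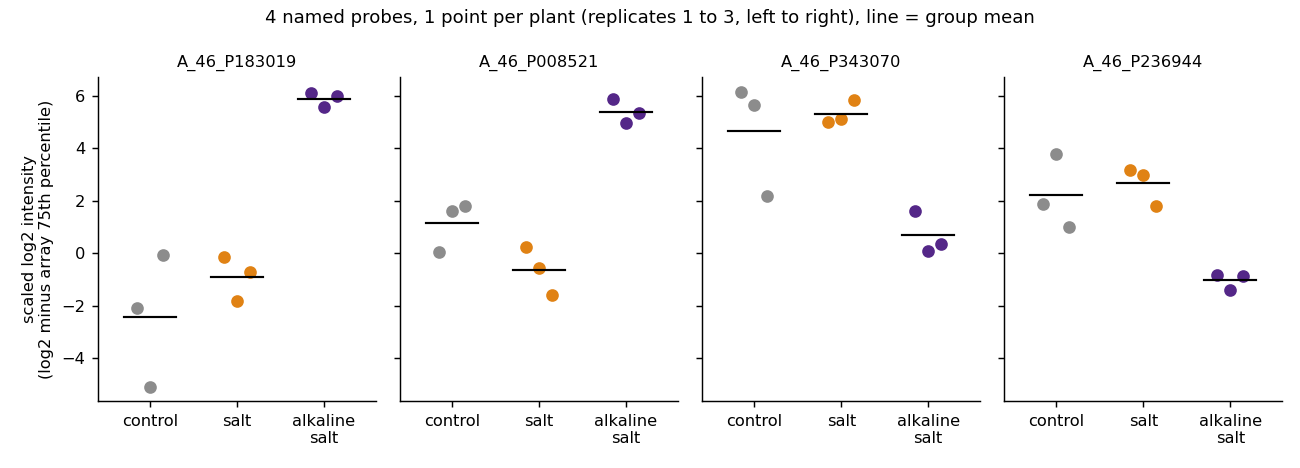
Each panel shows 1 probe, with scaled log2 intensity on the vertical axis and 1 point per plant in the control, salt and alkaline salt groups; the line is the group mean. For A_46_P183019 and A_46_P008521 every alkaline salt plant lies above every other plant, and for A_46_P343070 and A_46_P236944 every alkaline salt plant lies below every other plant.

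Some probes crossed the detection limit altogether. Of all 43603 probes, 14796 were well above background in all 6 plants and 20054 in none. In between, 144 were well above background in all 3 alkaline salt plants and in no salt plant, and 106 in all 3 salt plants and in no alkaline salt plant. Detection and the test use the same signals, so the 138 of the 144 probes that were called higher and the 88 of the 106 that were called lower are a description. The called gains had a median bound of at least 5.22-fold (log2 bounds from 0.98 to 8.29) and the called losses of at least 3.58-fold (0.70 to 6.43). At least 16-fold bounds were reached by 22 gains and 4 losses.

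The control plants show where these probes stood without stress. Among the 144 gained probes, 109 were well above background in no control plant and 4 in all 3. Among the 106 lost probes, 46 were well above background in all 3 controls, 56 in 1 or 2 and 4 in none. The detection classes were sensitive to the 2 arrays of low background: the gained probes numbered 594 without salt replicate 2 and the lost probes 328 without alkaline salt replicate 3. They numbered 224 gained without alkaline salt replicate 2 and 302 lost without salt replicate 1. Leaving out an array removes a condition from the definition, so these counts could only stay or grow.

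Rises and falls were called at every strength of signal. The tested probes were divided into 4 groups of equal number by the mean of their salt and alkaline salt levels, a measure that a rise and a fall move alike. In the dimmest group, with mean levels below −0.79, 384 probes rose and 299 fell (8.63% and 6.72%). In the next 2 groups the rises were 302 and 353 and the falls 256 and 326. In the brightest group, above 1.93, there were 381 rises and 407 falls (8.56% and 9.15%). Differences of at least 4-fold, with bounds where 1 group had no detection, were called upward for 210 probes in the dimmest group and 84 in the brightest, and downward for 123 and 24. A probe with a low mean could be tested because it was well above background in only 1 group. The filter itself therefore favours large differences among dim probes, and these 4-fold counts are a description. The median half-width of the 95% interval was 0.82 in the dimmest group and 0.55 in the brightest, so the dim probes carried the larger error.

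Called rises and falls differed in how much plants varied. For the 994 called falls above background in all 6 plants, the median SD between plants was 0.19 under salt and 0.32 under alkaline salt. In control plants it was 0.31, close to alkaline salt, so the salt group was the tight one for these probes. The SD was larger in alkaline salt than in salt for 72.1% of them. For the 999 called rises above background in all 6 plants, the median SD was 0.24 in salt, 0.22 in alkaline salt and 0.30 in controls. It was larger in alkaline salt than in salt for 47.5%. Over all tested probes above background in all 6 plants the same share was 50.4%. A fall also lowers the alkaline salt level, and dim probes varied more. The median SD under alkaline salt was 0.39 in the dimmest signal group and 0.25 in the brightest, which was not accounted for. These shares were not tested, since probes of 1 plant are not replicates.

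The plants of a group did not contribute equally. Alkaline salt replicate 3 was the lowest of its group for 48.7% of the called falls, and alkaline salt replicate 2 for 19.2%. Among the called rises, alkaline salt replicate 1 was the highest of its group for 53.2% and alkaline salt replicate 2 the lowest for 59.0%. Alkaline salt replicate 2 was thus the plant with the smallest departure from salt plants most often among rises. Among salt plants, replicate 3 was the lowest of its group for 52.6% of the called rises and the highest for 45.7% of the called falls.

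The 3 slides, each holding 1 plant of every group, gave differences of unequal size. Within slides 1, 2 and 3, the median difference over all tested probes was −0.01, 0.03 and 0.01, and differences of at least 2-fold were found for 22.2%, 21.1% and 28.5% of tested probes. For the called rises the median difference was 3.16-fold on slide 1, 2.38-fold on slide 2 and 3.34-fold on slide 3. For the called falls it was 2.39-fold, 2.16-fold and 2.84-fold. Slide 2 thus had the smallest and slide 3 the largest median difference in both directions. Each of these differences reflects the salt plant of the slide as well as the alkaline salt plant. In all, 864 tested probes were at least 2-fold higher on every slide and 601 at least 2-fold lower, of which 779 and 510 were called.

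**Figure D4:**
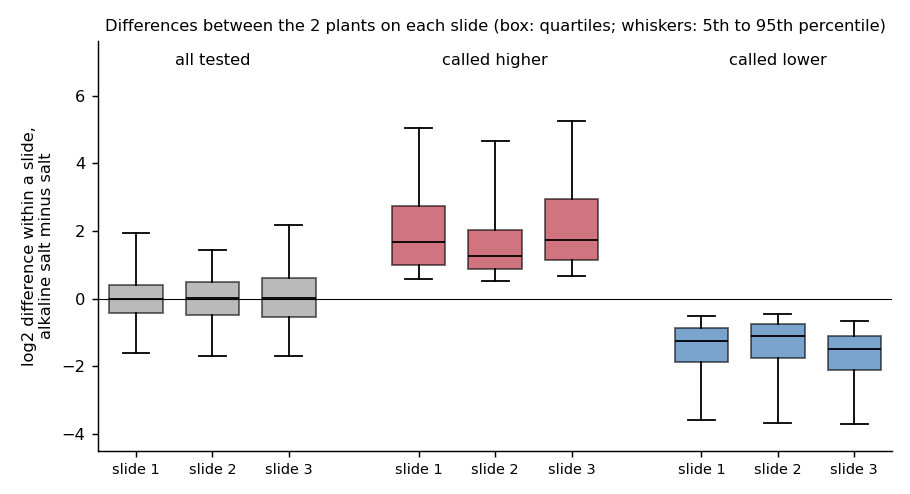
Boxes show the log2 difference between the alkaline salt and the salt plant of the same slide (vertical axis) for all tested probes, called rises and called falls on slides 1 to 3, with quartiles as boxes, the median as a line and the 5th to 95th percentiles as whiskers. All tested probes centre on 0 on each slide, and slide 2 has the smallest median among both called rises (2.38-fold) and called falls (2.16-fold).

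Arrays of the same group were closer to each other than arrays of the 2 groups. Over the 14796 probes above background in all 6 plants, the root mean square log2 difference was 0.48 to 0.58 between salt plants, 0.48 to 0.59 between alkaline salt plants, and 0.76 to 0.94 for the 9 pairs of a salt with an alkaline salt plant. A difference of at least 2-fold was found for 4.47% to 7.26% of these probes between salt plants, 3.86% to 8.62% between alkaline salt plants and 14.1% to 23.0% between the groups. The smallest distance between the groups was thus above the largest within either group. Groups did not overlap for 39.6% of tested probes, of which 3659 (20.6%) were higher and 3383 (19.0%) lower in alkaline salt. Among called probes this held for 1419 of the rises and for all 1288 falls, which the test itself favours.

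Different probes of a transcript gave similar changes. Several tested probes were available for 1192 transcript identifiers, and at least 1 of them was called for 225. All probes had the same sign for 220 of these and were all called in the same direction for 121, of which 59 were higher and 62 lower. The other 5 held probes of opposite sign, and 0 held probes called in opposite directions. The largest and smallest log2 fold change of a transcript identifier differed by a median of 0.15 over all 1192 and 0.30 over the 225. For 32 of the 225 the difference was over 1, so for these the probes gave unlike sizes. Probes of a transcript were read on the same arrays and therefore check the probe, not the plants.

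Beside the unstressed controls, the probes called here stood as follows. For the called rises the median level was −0.04 in controls, and it was −0.24 under salt and 1.45 under alkaline salt. The control mean lay below the salt mean for 545 of the 1420 rises, between the means of both salt groups for 866 and above the alkaline salt mean for 9. For the called falls the median level was 1.67 in controls, 1.63 under salt and 0.26 under alkaline salt, and the control mean lay above the salt mean for 741 of the 1288, between for 544 and below the alkaline salt mean for 3. The control mean was nearer to alkaline salt than to salt for 130 rises (9.15%) and 57 falls (4.43%). Since the probes were chosen for a difference between the salt groups, these positions are a description with no test. All 3 controls lay outside the range of the alkaline salt plants, on the side of salt, for 1295 of the rises and 1195 of the falls.

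**Figure D5:**
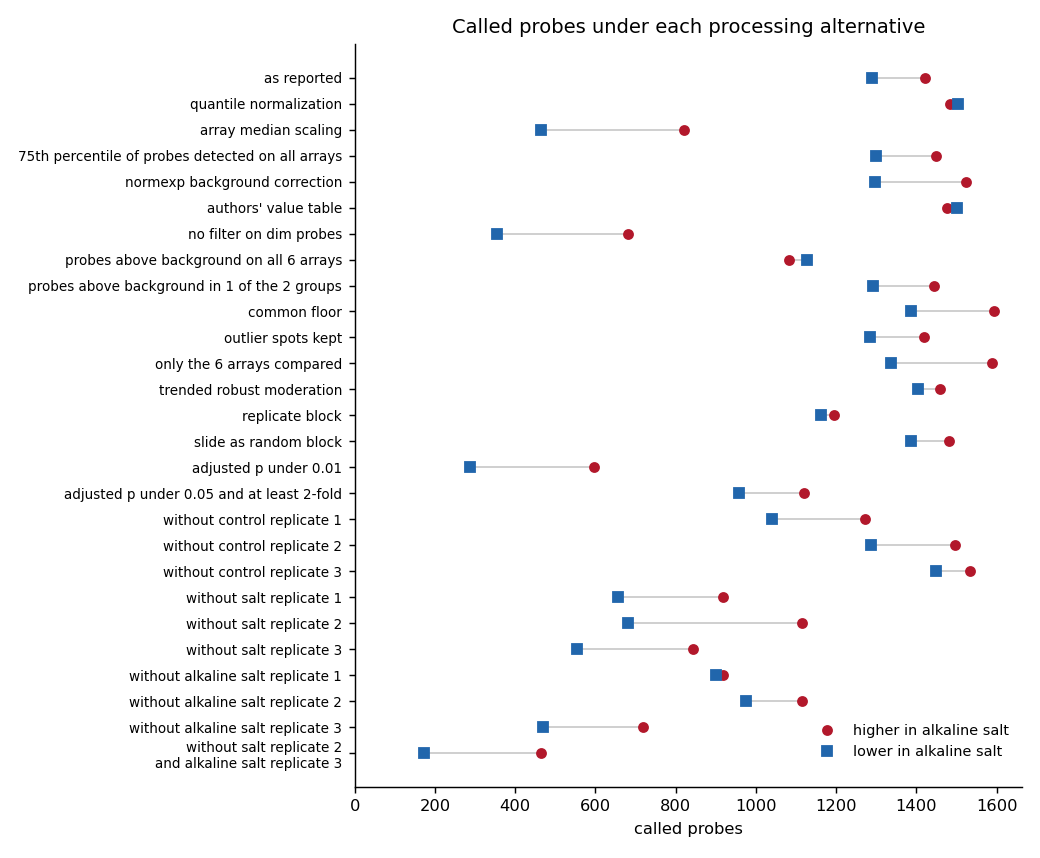
Points give the number of probes called higher (red circles) and lower (blue squares) in alkaline salt than in salt plants (horizontal axis) under each processing alternative or with single plants left out (vertical axis). The reported counts are 1420 and 1288, and the lowest ones, 465 and 172, come without the 2 arrays of lowest negative control signal.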

How the data were processed

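RNA of 9 leaf samples was hybridised to 1-colour Cy3 arrays. The deposited scanner files hold linear intensity, made with Agilent Feature Extraction 10.1.1.1, per the file headers, whose scan dates precede the growing period that the labels give, for a reason not given in the sources used here. Version 10.5.1.1 is the one named in the submitters' processing notes. Per the file headers, the intensity used had its background subtracted and was detrended inside each array, with no normalisation between arrays. The deposited value table holds log2 values of unstated normalisation; it matched quantile-normalised log2 processed intensities to within 0.0891, was not centred, and served as an alternative.

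Of 45220 spots, 1417 were control spots and were left out. No gene spot was saturated (0 of them). The 71 spot values marked as outliers were set to missing, so the fit dropped an array for 10 tested probes, 3 of them called. Repeated spots were averaged. Group means of all 9 arrays were fitted for each probe in R 4.3.3 using limma 3.58.1 (lmFit, eBayes, no covariate), and p-values of alkaline salt minus salt were adjusted over 17798 tested probes. The fit was also run on simulated data with independent noise and no array, slide or background effect, a check that does not cover such effects. Figures were drawn with matplotlib 3.10.9.

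Samples were grouped by title. Probes were named by identifier, as the 2 called rises and 2 called falls with the largest fitted change among probes above background on all 6 arrays. The 15 lists of 241 genes drawn up for this comparison could not be applied because probes carry no gene names in the files, and 0 were tested. The members, lists and tests were chosen with earlier results of these data known. Every group had 1 array on each of the 3 slides. Same-numbered salt and alkaline salt arrays deviated from their group means with correlations of 0.02, −0.05 and −0.10, so the numbers were not taken as pairs. The number of arrays limits the precision. Alternatives covered scaling, background correction, the value table, filters, a floor, moderation, blocks, thresholds and left-out arrays.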

Additional observations from a re-analysis of the deposited data

How the results depend on the processing

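Apart from the omission of single arrays, 18 alternatives were run, and 14 of them kept the count of rises, and 14 the count of falls, within 1.5 times the one reported. Scaling to the array median gave 820 rises and 465 falls, no filter on dim probes (43603 tested) 682 and 355 with 146 falls of at least 4-fold, and an adjusted p under 0.01 gave 596 and 287. Leaving out salt replicate 2 and alkaline salt replicate 3 together, chosen after seeing the data, gave 465 and 172, with 238 and 58 of at least 4-fold. Normexp gave 171 and 39 of at least 4-fold, testing only probes above background on all 6 arrays 180 and 83, and a common floor at −2.06 gave 150 falls of at least 4-fold. Where the tested set, the arrays or the threshold did not differ, the cause was not tested. Rises made up 52.4% of calls as reported, and 63.8%, 65.8%, 67.5% and 73.0% with median scaling, no filter, the stricter threshold and without both arrays. It was 49.7% with quantile normalisation, 49.6% in the authors' value table and 49.0% with only probes above background on all 6 arrays (1083 rises and 1127 falls), so falls were the more numerous there. Leaving out single arrays gave 719 to 1533 rises, 469 to 1448 falls, 332 to 472 rises of at least 4-fold and 95 to 238 falls of at least 4-fold. Of the probes called as reported and tested again, 1 had the opposite sign in the authors' value table, 1 with the common floor and 1 with outlier spots kept, and 0 in each other probe-level alternative. Where the intensities were left as they were, a reversal was hardly possible, because nearly all called probes had groups that did not overlap. No named probe changed direction in its 24 alternatives: A_46_P008521 was called in all 24, A_46_P183019 and A_46_P236944 in 23 and A_46_P343070 in 21. For the named probes, whose groups did not overlap, alternatives that left the intensities as they were could not change the direction. With normexp the log2 fold changes of A_46_P183019, A_46_P008521, A_46_P343070 and A_46_P236944 were 5.67, 5.05, −4.17 and −2.66.

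The replicate block gave 1195 rises and 1161 falls and shared 2155 calls with the fit without it, and 0 of 3 salt arrays correlated best with the alkaline salt array of its own number. Treating the slide as random (correlation 0.0371) left 1480 and 1387. The block changed no call of a named probe.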
